A study of Rattus norvegicus with 13 samples.

Results

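The genes of the mitochondrial respiratory chain and ATP synthase were followed in the peripheral cornea and limboscleral rim of rats 3 days into a corneal injury model. Members were all rows of the day 3 gene tables whose symbol begins with Mt-, Nduf, Uqcr, Cox4 to Cox8 or Atp5, or is Sdha, Sdhb, Sdhc or Sdhd. This rule took 108 of 28357 named rows: 13 mitochondrially encoded genes, 74 nuclear-encoded subunits, 3 muscle isoforms, 5 isoforms of other tissues, 7 complex I assembly factors, 3 further factors and 3 copies or pseudogenes. All groups are male Lewis rats of wild-type genotype, 2 months old, with limbal stem cell deficiency and the corneal neovascularization that goes with it. One group received spironolactone, a mineralocorticoid receptor antagonist, under the skin at 25 mg/kg/day (3 libraries), and the other received the vehicle of olive oil (90%) and DMSO (10%) (3 libraries). The 7 libraries of day 7 were not used here, because no table at hand names their genes. The labels do not say whether each library is a separate animal. The p-values therefore rest on the spread among libraries, which may be technical.

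The respiratory chain passes electrons through complexes I to IV of the inner mitochondrial membrane, and complex V uses the resulting proton gradient to make ATP. Mitochondrial DNA encodes hydrophobic core subunits of complexes I, III, IV and V, while all of complex II and most other subunits are encoded in the nucleus, translated in the cytosol and imported. The mitochondrial genes are transcribed together as long precursors that are cut into separate RNAs, so their values are not independent of one another. Striated muscle replaces several complex IV subunits with isoforms of its own.

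Depth was 18176059 to 25311091 estimated counts per day 3 library. Of the 108 members, 98 passed the filter on low counts and 10 did not. Ndufa1, Atp5f1, Cox7a1, Cox7b2, Cox8c, Ndufa10l1, Ndufb4l1 and Cox6c-ps1 were listed at 0 in all 6 libraries, Ndufa13 had 0 to 3 counts and Ndufs6 at most 1. Ndufa1, Ndufa13, Ndufs6 and Atp5f1 encode subunits that nearly every cell uses, so a listed 0 is not taken as absence of the RNA. Many nuclear members have near-identical copies elsewhere in the genome, and reads could be split between them or lost. Markers of corneal epithelium were present in every library, with Krt5 at 5532 to 7183 CPM (counts scaled to library size by TMM) with spironolactone and 2863 to 4460.3 CPM with vehicle. The corneal keratin Krt12, named after its values were seen, was low at 7.80 to 12.2 CPM over the 6 libraries.

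Per transcript length, mitochondrial RNAs were far more abundant than those of their nuclear partners. The deposited TPM values, which are scaled by transcript length, had a median of 7610 TPM over the 13 mitochondrial genes, averaged over the 6 libraries, and of 186 TPM over the 70 tested nuclear subunits. The highest level was that of Mt-atp8, a small ATP synthase subunit, at 43201 TPM. Next came Mt-atp6 at 19724, Mt-co2 at 17585, Mt-cox3 at 14588 and Mt-co1 at 13747 TPM. The rank of Mt-atp8 depends on the scaling by length. On average Mt-atp8 took 2.34% and 2.30% of mitochondrially encoded counts with spironolactone and vehicle, against 13.7% and 13.2% for Mt-atp6. Both genes are carried on 1 shared RNA, so the higher Mt-atp8 level is uncertain. Mt-nd4 stood far below its neighbour, at 80.7 TPM against 4769 TPM for Mt-nd4l, although both are parts of complex I and are carried on 1 shared RNA in mammals. The Mt-nd4 level was 1.67% ± 0.0687 (SD, n = 3) of the Mt-nd4l level with spironolactone and 1.71% ± 0.0623 (SD, n = 3) with vehicle, so the gap was alike in both groups. Why Mt-nd4 was so low was not tested. The most abundant nuclear subunit was Atp5b, the catalytic beta subunit of ATP synthase, at 1082 TPM, and complex I assembly factors had a median of 14.0 TPM.

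No member passed edgeR's quasi-likelihood test at an adjusted p of 0.05, nor did any of the 14762 genes tested (0.0%). At an unadjusted p under 0.05, 9 of the 98 tested members (9.18%) were higher and 7 (7.14%) lower with spironolactone. Both shares were below the 12.2% and 10.4% of all genes. The lowest edgeR adjusted p of a member was 0.0649, that of Cox6a2, which it shares with other genes as the lowest of all. DESeq2, run on the same counts, called 7 members: Cox6a2, Ndufa4l2, Mt-nd4, Mt-co1, Cox4i2, Mt-co2 and Mt-nd4l. DESeq2 put 5.76% of all genes past its threshold as higher and 3.34% as lower, whereas limma-voom called none of them (0). The values that follow are therefore given as levels and differences.

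Mitochondrially encoded transcripts had lower values with spironolactone. Of the 13 genes, 12 had a negative log2 fold change (spironolactone minus vehicle), where 51.6% of all genes did, with a median of -0.17 over the 13 and of -0.0073 over all genes. In 5 of the 13 (38.5%) every spironolactone library lay below every vehicle library, where 16.1% of all genes did: Mt-nd4, Mt-nd4l, Mt-co1, Mt-co2 and Mt-cox3. An unadjusted p under 0.05 in the lower direction was reached by 5 of the 13, where 10.4% of all genes did: Mt-nd4, Mt-nd4l, Mt-co1, Mt-co2 and Mt-cyb, while Mt-cox3 had an unadjusted edgeR p of 0.0507. The median was -0.10 without spironolactone replicate 2, and -0.26 on the scale of log2(TPM + 1), where that of all genes was -0.06. In bulk tissue, fewer cells rich in mitochondria and less mitochondrial RNA per cell cannot be told apart.

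**Figure D1:**
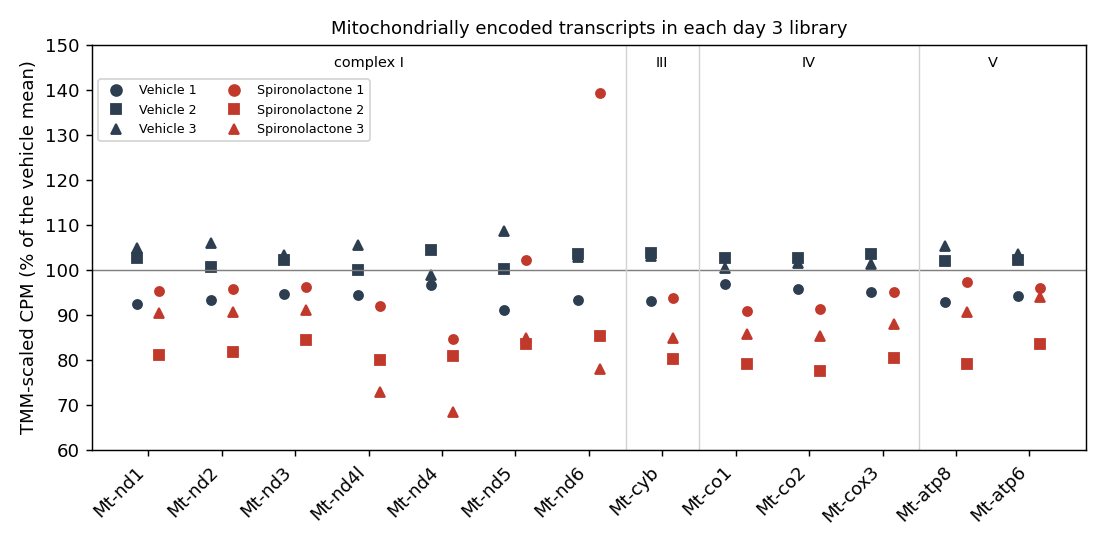
TMM-scaled CPM of the 13 mitochondrially encoded genes in each day 3 library, as a percentage of the vehicle mean (grey line at 100), grouped by complex. Each point is 1 library, with vehicle left and spironolactone right of each position. Mt-co1, Mt-co2, Mt-cox3, Mt-nd4 and Mt-nd4l have every spironolactone point below every vehicle point, and Mt-nd6 has 1 high spironolactone library.

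Among the complex IV genes of the mitochondrion, Mt-co1 encodes the catalytic subunit that reduces oxygen. It had 12329, 10735 and 11651 CPM in spironolactone replicates 1 to 3 and 13161, 13930.1 and 13631 CPM in vehicle replicates 1 to 3. All spironolactone values lay below the vehicle values (log2 fold change -0.23 ± 0.074 SE, edgeR adjusted p = 0.14). Mt-co2, which carries the site that accepts electrons from cytochrome c, had 5882, 4985 and 5491 CPM against 6169, 6608 and 6527 CPM (log2 fold change -0.24 ± 0.078 SE, edgeR adjusted p = 0.144). Mt-cox3, another core subunit, had 5983, 5058 and 5534 CPM against 5992, 6517 and 6375 CPM. The Mt-cox3 groups were barely separated, replicate 1 of spironolactone lying next to replicate 1 of vehicle (log2 fold change -0.19 ± 0.08 SE, edgeR adjusted p = 0.223).

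Among the complex I genes, Mt-nd4 and Mt-nd4l, which share an RNA, had the largest differences of the 13. For Mt-nd4l the values were 387, 337 and 307 CPM with spironolactone and 397, 421 and 445 CPM with vehicle (log2 fold change -0.29 ± 0.092 SE, edgeR adjusted p = 0.135). Mt-nd4 had 61.6, 58.8 and 49.7 CPM against 70.3, 75.9 and 71.9 CPM (log2 fold change -0.36 ± 0.086 SE, edgeR adjusted p = 0.0839). The Mt-nd4 difference rests on the very low level given above, so its counts may be only part of the reads of this RNA, and it is uncertain. In both genes spironolactone replicate 3 was lowest, while in Mt-co1, Mt-co2 and Mt-cox3 it was replicate 2. Mt-nd1, Mt-nd2, Mt-nd3 and Mt-nd5, further membrane-arm subunits, had log2 fold changes of -0.17, -0.16, -0.14 and -0.15, and in each of them the groups overlapped.

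Mt-nd6 is the complex I subunit encoded on the opposite strand of mitochondrial DNA from the other protein genes. It had 129, 78.9 and 72.1 CPM with spironolactone and 86.3, 95.7 and 95.1 CPM with vehicle. Spironolactone replicate 1 was above all vehicle libraries and the other spironolactone libraries were below them, so the log2 fold change of 0.01 ± 0.22 SE averages opposite values. Without spironolactone replicate 1 it was -0.29. The sources do not state whether reads were counted by strand, so reads from the other strand may enter Mt-nd6.

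Mt-cyb, the only mitochondrially encoded part of complex III, had 5718, 4899 and 5179 CPM with spironolactone and 5682, 6329 and 6292 CPM with vehicle. Spironolactone replicate 1 overlapped vehicle replicate 1 (log2 fold change -0.21 ± 0.082 SE, edgeR adjusted p = 0.191). The ATP synthase genes Mt-atp8 and Mt-atp6, whose reading frames overlap on 1 RNA, differed by -0.17 ± 0.09 SE and -0.13 ± 0.078 SE on the log2 scale, with overlapping groups. The members were also set against the sum of all mitochondrially encoded counts. Mt-co1 took 25.1% ± 0.235 (SD, n = 3) with spironolactone and 25.8% ± 0.603 (SD, n = 3) with vehicle, Mt-atp6 took 13.7% ± 0.338 and 13.2% ± 0.0918, and Mt-nd4l took 0.746% ± 0.0716 and 0.798% ± 0.0203. The shares of Mt-nd4 were 0.123% ± 0.0155 and 0.138% ± 0.00454. Mt-nd6 varied most, at 0.259%, 0.186% and 0.156% in spironolactone replicates 1 to 3 and 0.173%, 0.177% and 0.175% in the vehicle libraries.

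Nuclear-encoded subunits did not share the lower values of their mitochondrial partners. Of the 70 tested, 52 (74.3%) had a positive log2 fold change, where 48.4% of all genes did, with a median of 0.077 and a range of -0.10 to 0.32. In 10 of the 70 (14.3%) every spironolactone library lay above every vehicle library, near the 16.0% of all genes, and in 0 of the 70 every one lay below, where 16.1% of all genes did. At an unadjusted p under 0.05, 8 (11.4%) were higher, close to the 12.2% of all genes, and 0 lower. The median SE of a nuclear subunit was 0.067. On the scale of log2(TPM + 1) the median was 0.00902, where the median of all genes was -0.06, and without spironolactone replicate 3 it was 0.038 on the count scale.

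**Figure D2:**
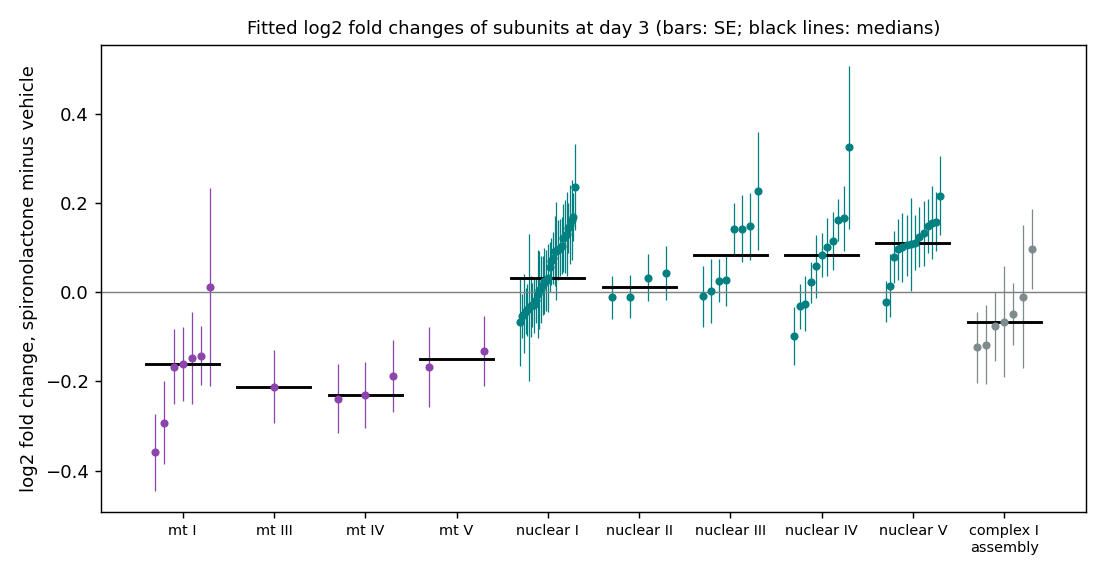
Fitted log2 fold change (spironolactone minus vehicle) of each tested subunit at day 3, grouped by genome (mt or nuclear) and complex, with complex I assembly factors at the right. Points are genes, vertical bars are standard errors and black lines are group medians. The medians of the mitochondrially encoded groups lie between -0.23 and -0.15, and those of the nuclear groups between 0.01 and 0.11.

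Complex I oxidizes NADH. Of its 33 tested nuclear subunits, 22 had positive log2 fold changes (median 0.031). In 4 of the 33 (12.1%) every spironolactone library lay above every vehicle library, fewer than the 16.0% of all genes. An unadjusted edgeR p under 0.05 as higher was reached by 9.09%, against 12.2% of all genes. The 3 with the smallest p were all higher with spironolactone, without overlap. Ndufv3, an accessory subunit of the NADH-oxidizing module, had 79.2, 82.2 and 83.2 CPM against 69.5, 72.2 and 75.9 CPM with vehicle (log2 fold change 0.17 ± 0.053 SE, edgeR adjusted p = 0.135). The accessory subunits Ndufa2 and Ndufa3 had 32.1 to 32.6 against 28.3 to 30.0 CPM (0.14 ± 0.056 SE) and 11.7 to 13.9 against 10.4 to 10.8 CPM (0.24 ± 0.096 SE). Ndufb9, at 254 TPM the most abundant of these subunits, differed by 0.02 ± 0.066 SE. The 7 Ndufaf genes encode proteins that help to build complex I and are not part of it. Of them 6 were negative, with a median of -0.066. In 0 of the 7 were the groups separated, where 16.0% of all genes lay above and 16.1% below the vehicle range. Ndufaf7, Ndufaf4, Ndufaf3 and Ndufaf5 had log2 fold changes of -0.12, -0.12, 0.10 and -0.08.

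Complex II, succinate dehydrogenase, links the chain to the citric acid cycle and has no mitochondrially encoded subunit. The flavoprotein subunit gene Sdha had 169, 190.4 and 181 CPM with spironolactone and 169.5, 179 and 176 CPM with vehicle. Sdhb, the iron-sulfur subunit, had 70.4, 69.9 and 74.6 against 71.9, 71.9 and 72.8 CPM. The groups overlapped in both genes and in the membrane anchors Sdhc and Sdhd, and the 4 log2 fold changes lay between -0.012 and 0.043.

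Complex III passes electrons from ubiquinol to cytochrome c. Of its 8 nuclear subunits, 7 had positive log2 fold changes (median 0.084). Uqcr11, a small accessory subunit, had 53.0, 56.4 and 59.4 CPM with spironolactone and 50.9, 52.0 and 50.4 CPM with vehicle (log2 fold change 0.14 ± 0.059 SE, edgeR adjusted p = 0.218). It was the 1 gene of these 8 (12.5%) without overlap, where 16.0% of all genes were higher without overlap. Uqcrc1, a core subunit, and Uqcrq differed by 0.15 ± 0.075 SE and 0.14 ± 0.076 SE, while Uqcrh, at 279.8 TPM the most abundant, differed by 0.0025 ± 0.072 SE.

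Of the 11 nuclear subunits of complex IV, 8 had positive log2 fold changes (median 0.082), while the 3 mitochondrially encoded core subunits of the same enzyme were negative. In 3 of the 11 (27.3%), Cox5b, Cox6b1 and Cox6c, every spironolactone library lay above every vehicle library, where 16.0% of all genes did. An unadjusted edgeR p under 0.05 as higher was reached by 9.09%, against 12.2% of all genes. Cox6b1, which faces the intermembrane space near the cytochrome c site, had 54.0, 54.6 and 54.8 CPM with spironolactone and 47.6, 49.1 and 49.4 CPM with vehicle. Its groups did not overlap (log2 fold change 0.16 ± 0.048 SE, edgeR adjusted p = 0.12). Cox7b had 95.1, 102 and 112 against 89.3, 90.2 and 96.9 CPM, with overlap (0.17 ± 0.073 SE). Cox4i1, the largest nuclear subunit, had 223, 232 and 237 against 228, 227 and 228 CPM (0.02 ± 0.046 SE). Cox7a2 differed by -0.03 ± 0.061 SE. Cox5b, chosen after its values were seen, was at 89.8, 97.6 and 108 CPM with spironolactone and at 56.9, 89.4 and 89.4 CPM with vehicle. Vehicle replicate 1 was far below the other vehicle libraries for Cox5b, and the SE of 0.18 was the largest of the 11. Cox7a2l, which takes part in joining complexes III and IV into supercomplexes, differed by 0.05 ± 0.045 SE.

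Complex V, the ATP synthase, had the highest median of the nuclear groups at 0.11, with 13 of 14 tested subunits positive. In 2 of the 14 (14.3%) every spironolactone library lay above every vehicle library, where 16.0% of all genes did. An unadjusted edgeR p under 0.05 as higher was reached by 3 of the 14 (21.4%), against 12.2% of all genes. Atp5a1, the alpha subunit of the catalytic head, had 727, 791 and 821 CPM with spironolactone and 707, 691 and 714 CPM with vehicle. Its groups did not overlap (log2 fold change 0.15 ± 0.061 SE, edgeR adjusted p = 0.213). Atp5g2, a gene for the rotating c ring, had 124, 137 and 146 against 122, 119 and 123 CPM, also without overlap (0.16 ± 0.067 SE). Atp5d, a subunit of the central stalk, had 104, 119.6 and 132 against 104, 97.7 and 104 CPM, with spironolactone replicate 1 within the vehicle range (0.22 ± 0.089 SE). In Atp5a1, Atp5g2 and Atp5d alike, spironolactone replicate 1 was nearest to vehicle and replicate 3 farthest. Atp5b differed by 0.12 ± 0.067 SE, with overlap. The remaining Atp5 genes outside the enzyme's subunits, Atp5s and Atp5sl, differed by -0.07 ± 0.12 SE and 0.10 ± 0.071 SE, also with overlap.

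The balance between the genomes was compared in each library by summed TPM. Mitochondrially encoded RNAs took 14.1%, 12.1% and 12.7% of TPM in spironolactone replicates 1 to 3 and 15.2%, 16.1% and 15.6% in vehicle replicates 1 to 3. Nuclear subunits took 1.67%, 1.80% and 1.84% against 1.75%, 1.74% and 1.77%. The mitochondrial shares did not overlap between the groups, whereas the nuclear shares did. The ratio of mitochondrial to nuclear TPM was 8.45, 6.76 and 6.91 with spironolactone and 8.65, 9.23 and 8.83 with vehicle, with means of 7.37 ± 0.938 and 8.90 ± 0.296 (SD, n = 3 each). Spironolactone replicate 1 lay close to the vehicle libraries and replicates 2 and 3 well below them. In the TPM sums the short Mt-atp8 weighs most among the mitochondrial genes. In estimated counts, which are not scaled by length, the mitochondrial share was 4.85%, 4.17% and 4.56% against 5.13%, 5.47% and 5.48%, also without overlap. The ratio of mitochondrial to nuclear counts was 6.80, 5.44 and 5.68 against 6.89, 7.46 and 7.20. No p is given for these sums, since the members were chosen with earlier results known.

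**Figure D3:**
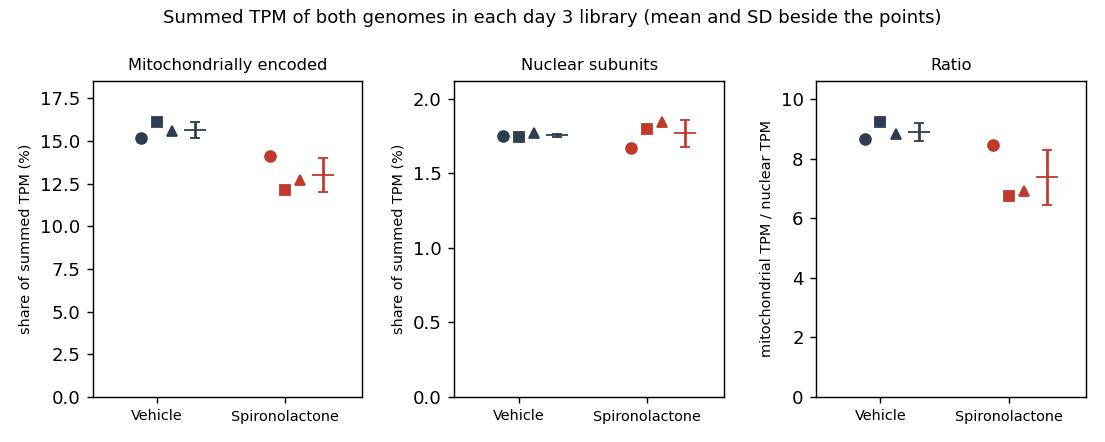
Share of summed TPM taken by the 13 mitochondrially encoded genes (left) and the 74 nuclear subunit rows (middle), in percent, and the ratio of both (right), in each day 3 library. Points are libraries, with the mean and SD beside them, and all axes start at 0. The mitochondrial share is 12.1% to 14.1% with spironolactone and 15.2% to 16.1% with vehicle, and the nuclear shares overlap.

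Markers of other tissues differed between the same libraries. The 16 skeletal muscle markers, of which 0 were at 0 throughout, summed to 196, 169 and 312 CPM in spironolactone replicates 1 to 3 and 542, 1231 and 1018 CPM in vehicle replicates 1 to 3. The 12 photoreceptor markers summed to 3142, 3992 and 227 CPM against 5230, 4702 and 4838 CPM, and the rod gene Gnat1 was at 875, 1133 and 51.5 CPM with spironolactone. The 11 corneal epithelial markers went the other way, at 17230, 19610 and 20100 CPM against 10340, 9764 and 13610 CPM, with Krt5 at 0.88 ± 0.18 SE and Krt15 at 0.58 ± 0.14 SE on the log2 scale. The corneal keratin Krt12, low in every library, differed by 0.30 ± 0.17 SE with overlapping groups. Which epithelium these RNAs came from was not tested. The lens markers, 9 of 11 tested, summed to 26.3, 10.7 and 20.1 CPM against 20.9, 42.8 and 469 CPM, so vehicle replicate 3 stood apart. The part of these tissues in the mitochondrial values was not tested. Without spironolactone replicate 3, the library with few photoreceptor RNAs, the median of the 13 mitochondrially encoded genes was -0.18, and without both replicates 3 it was -0.14. In the libraries that remained, the muscle and photoreceptor sums were still lower with spironolactone, so neither omission evened out these tissues.

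Of the muscle isoforms, Cox6a2 had the largest difference of all members. This gene encodes the heart and skeletal muscle form of complex IV subunit 6A. It had 0.789, 0.886 and 1.45 CPM with spironolactone and 3.11, 6.67 and 5.69 CPM with vehicle. Every spironolactone library was below every vehicle library, and the fitted vehicle level was 4.93 times as high (log2 fold change -2.30 ± 0.37 SE, edgeR adjusted p = 0.0649). The edgeR adjusted p of Cox6a2 was 0.0438 when vehicle replicate 1 was left out, 0.043 when vehicle replicate 3 was, 0.0326 when both replicates 3 were, and 0.0439 with no filter on low counts; over all alternatives it ranged from 9.57e-06 (DESeq2) to 0.259. In the same libraries the muscle genes Acta1 and Ckm, for skeletal actin and muscle creatine kinase, differed by -1.98 ± 0.35 SE and -2.08 ± 0.43 SE. Cox6a2 TPM was 7.56%, 9.12% and 8.60% of Acta1 TPM with spironolactone and 10.6%, 10.8% and 10.8% with vehicle.

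Cox8b, the muscle form of subunit 8, had 4.56, 3.75 and 5.10 CPM with spironolactone and 4.52, 5.64 and 5.40 CPM with vehicle. These groups overlapped (log2 fold change -0.22 ± 0.17 SE, edgeR adjusted p = 0.458). Its TPM was 91.5%, 81.0% and 62.4% of that of Acta1 with spironolactone and 32.7%, 19.2% and 21.2% with vehicle. This proportion was higher in every spironolactone library, since Cox8b was not lower to the extent that Acta1 was. All 16 skeletal muscle markers had negative log2 fold changes (median -2.03), so Cox8b did not follow them. Which cells the Cox8b RNA came from was not tested. Cox7a1, the other muscle isoform, was listed at 0. The general partner Cox6a1 had 140.4, 153 and 162 against 144, 135 and 142 CPM, and Cox8a had 97.3, 111 and 113 against 104, 106 and 99.1 CPM, both with overlap. Per length, Cox6a2 stood at 0.847% ± 0.233 of Cox6a1 with spironolactone and at 4.63% ± 1.76 with vehicle, and Cox8b at 9.32% ± 1.53 and 11.3% ± 1.23 of Cox8a (SD, n = 3 each).

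**Figure D4:**
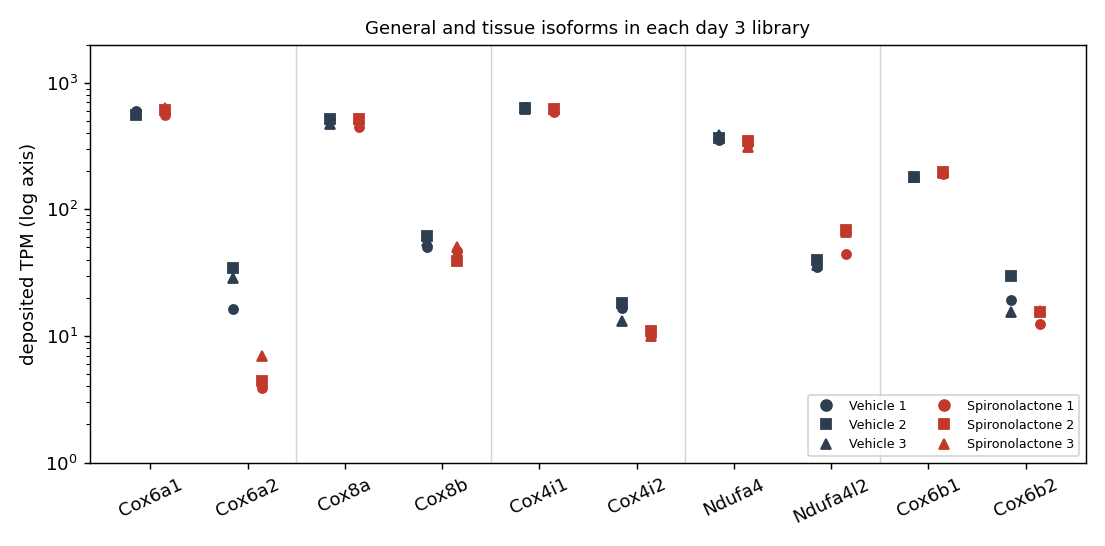
Deposited TPM (log axis) of 5 general subunits, each beside its tissue isoform, in the 6 day 3 libraries. Each point is 1 library. Cox6a2 and Cox4i2 lie lower and Ndufa4l2 lies higher in all 3 spironolactone libraries than in the vehicle libraries, Cox8b lies at 39.4 to 50.8 TPM against 50.8 to 62.0 TPM, and Cox6b2 lies at 12.4 to 15.7 against 15.6 to 29.6 TPM.

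The start regions of the muscle forms Cox6a2 and Cox8b are shown beside that of Cox8a, a general partner. Atp5o, an ATP synthase stalk subunit, is added as an example of a nuclear subunit. Each run is the 250 bases before the RefSeq transcription start on build GRCr8, 5′ to 3′ on the gene's strand. Capitals mark matches on either strand to 3 motifs. One is a loose pattern for MEF2, a muscle factor: CTA and TAG with 4 bases of any kind between them. It admits more runs of letters than a MEF2 site does, so a match need not be such a site. The others are that of the respiratory gene factor NRF1 (the 10 letters in capitals in the Atp5o window) and the ETS core bound by GABP (CCGGAAG).
Cox6a2 (chr1:192219717-192219966, minus strand): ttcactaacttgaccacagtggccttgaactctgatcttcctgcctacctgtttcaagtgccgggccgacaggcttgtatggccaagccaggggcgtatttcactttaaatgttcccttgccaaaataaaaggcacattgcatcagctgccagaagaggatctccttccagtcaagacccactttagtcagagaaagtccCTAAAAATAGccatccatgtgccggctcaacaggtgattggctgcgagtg
Cox8b (chr1:205408274-205408523, minus strand): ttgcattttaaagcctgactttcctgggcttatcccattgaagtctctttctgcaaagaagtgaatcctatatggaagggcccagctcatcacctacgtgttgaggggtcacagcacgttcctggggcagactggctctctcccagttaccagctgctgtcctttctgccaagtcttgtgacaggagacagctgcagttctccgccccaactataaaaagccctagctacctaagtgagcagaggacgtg
Cox8a (chr1:213833624-213833873, minus strand): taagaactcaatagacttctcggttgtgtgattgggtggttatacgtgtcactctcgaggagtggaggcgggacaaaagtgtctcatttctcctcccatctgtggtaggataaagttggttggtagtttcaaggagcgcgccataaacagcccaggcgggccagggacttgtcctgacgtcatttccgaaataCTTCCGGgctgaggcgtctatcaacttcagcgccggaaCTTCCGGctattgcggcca
Atp5o (chr11:44657484-44657733, minus strand): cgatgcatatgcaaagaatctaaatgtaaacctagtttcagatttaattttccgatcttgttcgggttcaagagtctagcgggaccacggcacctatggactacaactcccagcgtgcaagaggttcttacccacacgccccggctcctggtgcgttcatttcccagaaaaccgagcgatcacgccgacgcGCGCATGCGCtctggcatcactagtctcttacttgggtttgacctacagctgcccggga

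The Cox6a2 window held 1 match to the loose MEF2 pattern, beginning 50 bases before the start. The Cox8b window held 0 matches to the 3 motifs, Cox8a held 2 ETS matches and Atp5o 1 NRF1 match. RefSeq windows were found for 82 of the 108 members, 15 of them through an older symbol, and for 66 of the 74 nuclear subunits. Of these 66, 19 (28.8%) held the ETS core, against 7.74% of 27457 windows of the same length, 1 per gene. The NRF1 motif was in 4 (6.1%) against 0.85%, and the loose MEF2 pattern in 1 (1.5%) against 3.43%. A match is a run of letters, and binding was not measured. Whether a match bears on the values of a gene was not tested.

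Isoforms of other tissues differed in opposite directions. Ndufa4l2 encodes a relative of the complex IV subunit NDUFA4 and is known to be induced by hypoxia. It had 23.3, 35.3 and 35.0 CPM with spironolactone and 17.4, 19.8 and 18.6 CPM with vehicle, with no overlap (log2 fold change 0.75 ± 0.16 SE, edgeR adjusted p = 0.0769). This was the highest log2 fold change of all members, and replicate 1 was the lowest of the spironolactone libraries. Its general partner Ndufa4 had 135, 143 and 132 against 138, 144 and 157 CPM (-0.10 ± 0.066 SE). Per length, Ndufa4l2 stood at 18.1% ± 3.95 of Ndufa4 with spironolactone and at 10.1% ± 0.752 with vehicle (SD, n = 3 each).

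Cox4i2, the form of subunit 4 known from lung and from low oxygen, had 6.03, 6.48 and 6.10 CPM with spironolactone and 9.50, 10.5 and 7.63 CPM with vehicle. Every spironolactone library was below every vehicle library (log2 fold change -0.57 ± 0.14 SE, edgeR adjusted p = 0.0877). When vehicle replicate 3, the lowest vehicle library for Cox4i2, was left out, its edgeR adjusted p was 0.0355, and over all alternatives it ranged from 0.0355 to 0.298. The 9 markers of blood endothelium summed to 500, 438 and 384 CPM against 597, 699 and 521 CPM, all 9 had negative log2 fold changes and 0 were at 0 throughout. Their part in the Cox4i2 values was not tested. Cox6b2, the testis form of subunit 6B, chosen after its values were seen, had 2.48, 3.02 and 3.20 CPM against 3.61, 5.60 and 3.03 CPM, and its groups overlapped.

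Genes that build and run mitochondria were mixed in direction, and, as among all genes, 0 of them passed edgeR's test. DESeq2 called 2 higher and 1 lower among the 16 regulators of mitochondrial content and 2 higher among the 21 citric acid cycle and carrier genes. It called 0 in the lists for mitochondrial DNA, mitochondrial ribosomes, other assembly factors, the outer membrane and import, and uncoupling. Of all genes it called 5.76% higher and 3.34% lower, so counts this small say little about the lists. In the list for mitochondrial DNA upkeep and expression, 18 of 29 had positive log2 fold changes (median 0.049). Hsd17b10, a part of mitochondrial RNase P, had 52.7, 53.0 and 54.2 CPM against 44.8, 47.6 and 49.7 CPM (log2 fold change 0.17 ± 0.058 SE, edgeR adjusted p = 0.151), and Mterf1, a transcription termination factor, differed by 0.17 ± 0.087 SE. The mitochondrial transcription factor gene Tfam, named after its values were seen, differed by 0.11 ± 0.067 SE. Mitochondrial ribosomal proteins were positive in 51 of 71 (median 0.048), with Mrpl52 at 0.12 and Mrpl27 at 0.12. In 9 of the 71 every spironolactone library lay above every vehicle library, and in 1 every one lay below, where 16.0% and 16.1% of all genes did.

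The regulators of mitochondrial content were divided. Of 16 genes, 6 were positive and 10 negative, with a median of -0.029. The most negative, named after its values were seen, was the nuclear receptor gene Esrrb, at a log2 fold change of -1.59 ± 0.76 SE (edgeR adjusted p = 0.283). Prkaa2, a catalytic subunit of the energy sensor AMPK, had 38.0, 38.9 and 35.1 CPM against 29.3, 30.4 and 31.7 CPM (log2 fold change 0.29 ± 0.066 SE, edgeR adjusted p = 0.0768). The fatty acid receptor gene Ppard differed by 0.27 ± 0.063 SE. Ppargc1a, the coactivator that drives mitochondrial gene programmes and is abundant in muscle, was named after its values were seen. It had 8.51, 8.06 and 6.85 CPM against 11.2, 10.3 and 12.3 CPM (log2 fold change -0.53 ± 0.12 SE, edgeR adjusted p = 0.0811). The factors Nrf1 (-0.02 ± 0.075 SE) and Esrra (0.16 ± 0.068 SE) were also named after their values were seen.

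Citric acid cycle and carrier genes were positive in 16 of 21 (median 0.05). Dlst, a subunit of the 2-oxoglutarate dehydrogenase complex, had 459.9, 534 and 505 CPM against 331, 330.5 and 428 CPM (log2 fold change 0.46 ± 0.12 SE, edgeR adjusted p = 0.0919). Etfa, which takes part in handing electrons from fatty acid oxidation to the chain, differed by 0.26 ± 0.071 SE. Other assembly factors of the complexes were evenly divided, with 17 of 37 positive and a median of -0.0064. Ttc19, a complex III factor, had 17.0, 17.4 and 16.5 CPM against 20.7, 20.6 and 19.9 CPM (log2 fold change -0.26 ± 0.066 SE, edgeR adjusted p = 0.0912), and the complex IV factor Cox14 had 1.52, 1.17 and 1.30 against 0.705, 0.537 and 1.01 CPM (0.81 ± 0.29 SE). Outer membrane, import and chaperone genes were positive in 15 of 19 (median 0.036), with the protease gene Lonp1 at 0.20 and the pore gene Vdac1 at 0.16. All 4 tested uncoupling proteins and related carriers were negative. Ucp3, a muscle form, had 0.225, 0.443 and 0.450 CPM against 0.581, 1.39 and 1.22 CPM, Slc25a14 had a log2 fold change of -0.30, and Ucp1 of brown fat was at 0 in every library. The spironolactone values of Ucp3 lie near the floor of the filter on low counts, so the size of its difference is uncertain.

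Cytosolic ribosomal proteins, another set of short and abundant nuclear transcripts, were positive in 77 of 79, with a median of 0.18. In 63 of the 79 every spironolactone library lay above every vehicle library, where 16.0% of all genes did. DESeq2 called 16 of the 79 higher and 1 lower, where it called 5.76% of all genes higher and 3.34% lower. Rps18 had 369.8, 376 and 409 CPM against 324, 329.9 and 330.0 CPM (log2 fold change 0.23 ± 0.055 SE, edgeR adjusted p = 0.0839). Rpl3l, the muscle form of a ribosomal protein, was among the 2 negative genes, at 0.338, 0.443 and 0.800 CPM against 1.91, 4.57 and 3.16 CPM (log2 fold change -2.59 ± 0.44 SE, edgeR adjusted p = 0.0649). Its spironolactone values also lie near the floor of the filter on low counts, so the size of this difference is uncertain.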

How the data were processed

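The authors deposited 1 table per day 3 library, whose columns follow RSEM's gene output and give expected counts and TPM, per the file headers. STAR 2.5.3a, RSEM 1.2.28 and the builds rn6 and Rnor_6.0 are named in the submitters' processing notes, with no role. Strand and RNA selection are not stated there. Deposited expected counts were rounded, and 1 row that names no gene (0.12% to 0.181% of counts) was left out. Genes were kept by edgeR's filter (minimum count 10), scaled by TMM and tested with edgeR 4.0.16 quasi-likelihood fits (robust, R 4.3.3), with Benjamini-Hochberg adjustment over 14762 genes at 0.05. The SE was computed as |log2 fold change|/√F. DESeq2 1.42.0 and limma 3.58.1 were alternatives, and the tests were tested on simulated data. No pair of libraries within a group agreed within sampling noise (chi-square per gene 7.91 to 23.7). Named genes were all mitochondrially encoded members, fixed isoform pairs and Sdh genes, the most abundant and the 3 smallest-p members of each larger class, and the 2 smallest-p genes of each other list. Members and lists were chosen with earlier results of these data known. Day 7 files were not used.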

Additional observations from a re-analysis of the deposited data

How the results depend on the processing

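For 45 named members under 16 alternatives (720 values), 670 values kept direction and side of the threshold, 13 (7 members) passed the threshold in the same direction and 37 (11 members, all within 0.0576 of 0 in the reported fit) had the opposite sign. The count of genes called, 0 with edgeR (1798 higher and 1534 lower at an unadjusted p under 0.05), was 1344 with DESeq2, 148 with no filter, 1040 without both replicates 3 and 0 to 781 with 1 library left out (781 without vehicle replicate 3, 40 without vehicle replicate 1, 2 without spironolactone replicate 3). Members called were 0 with edgeR, 7 with DESeq2, 1 with no filter, 2 without both replicates 3 and 0 to 2 with 1 library left out. The median log2 fold change of nuclear subunits was 0.00902 on log2(TPM + 1) and 0.00911 on log2(TPM + 0.1), and that of the mitochondrially encoded members -0.256 on both, against 0.0772 and -0.168 in the reported fit. Leaving out 1 library gave medians of -0.249 to -0.104 for the mitochondrially encoded members, 0.0382 to 0.109 for nuclear subunits and -1.46 to -1.1 for the muscle isoforms (the midpoint of only 2 tested genes, Cox6a2 and Cox8b), and a ratio of 0.815 to 0.878 for the mitochondrial share of counts (0.845 with all libraries). With the replicate block the medians were -0.171, 0.0774 and -1.26 and 0 genes were called, and same-numbered libraries did not pair (correlations of deviations 0.0898, -0.0845 and 0.0486). The mitochondrial rows hold no ribosomal or transfer RNA, so leaving these out gave no value.

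The log2 fold changes of opposite sign were, on log2(TPM + 1), Cox4i1 -0.0437, Cox7a2l -0.0159, Cox8a -0.0174, Mt-nd6 -0.105, Ndufb9 -0.0498, Sdha -0.0175, Sdhd -0.03, Uqcrh -0.0702. On log2(TPM + 0.1) they were Cox4i1 -0.0437, Cox7a2l -0.016, Cox8a -0.0174, Mt-nd6 -0.105, Ndufb9 -0.05, Sdha -0.0177, Sdhd -0.0302, Uqcrh -0.0705. They were Mt-nd6 -0.0409, Uqcrh -0.00228 with limma-voom, Uqcrh -0.000476 with a filter of 1 CPM in 3 libraries, Mt-nd6 -0.0347, Uqcrh -0.000558 with the replicate block, and Cox8a -0.00701, Sdhd -0.00883, Uqcrh -0.0468 without both replicates 3. With 1 library left out, members that took both signs ranged as follows: Cox7a2 -0.0723 to 0.0147, Mt-nd6 -0.29 to 0.165, Ndufb9 -0.0287 to 0.0771, Sdhb -0.0415 to 0.0104, Sdhc -0.0226 to 0.0211, Sdhd -0.00676 to 0.068, Uqcrh -0.0707 to 0.0573. The cause was not tested.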
